A study of Homo sapiens with 8 samples.

Results

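The genes described here encode the receptor complexes through which Norrin and the Wnt7 ligands act on endothelial cells: NDP, FZD4, TSPAN12, LRP5, LRP6, RECK, ADGRA2, FZD6, FZD7 and FZD8. They were taken by symbol from the deposited gene table, which held all 10 of them among its 30386 genes. RNA sequencing compared 4 samples of endothelial cells (iEC) with 4 samples of retinal endothelial cells (iREC). Both groups derive from WTC-TJP1, an established human line of induced pluripotent stem cells, and were sequenced at passage 1. No treatment or engineered allele separates the groups in the labels, which word the cell type alike for both and differ in the sample group. All samples thus come from 1 line, and the labels do not say whether the samples of a group were separate cultures, so p-values measure the spread between these samples, which may be technical.

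Norrin, a secreted protein unrelated to Wnts in sequence, binds Frizzled-4 together with the co-receptor LRP5 or LRP6, and the tetraspanin TSPAN12 raises the response of that complex to Norrin. Signalling through it stabilises beta-catenin and is needed for the growth and barrier function of retinal vessels, and loss of NDP, FZD4, LRP5 or TSPAN12 function causes familial exudative vitreoretinopathy or Norrie disease. In the vessels of the brain, RECK binds Wnt7a and Wnt7b and the adhesion receptor ADGRA2 (GPR124) couples that complex to Frizzled and LRP5 or LRP6.

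Promoters were available in the RefSeq table (GRCh38.p14) for 5 of the 10 genes, as windows of 300 bases from 250 before the start that RefSeq gives to 50 after it. For TSPAN12 and RECK that start lies inside the gene span of the deposited table, so their windows lie wholly within the spans given below. Printed are those of FZD4 and LRP5, which were higher in iREC, and of TSPAN12 and RECK, their partners in the Norrin and Wnt7 complexes, which were not called. Capitals mark GC boxes (GGGCGG) and the TCF/LEF words, which are AACAAAG, then the variant ATCAAAG, the further variant TACAAAG and lastly the variant TTCAAAG, each on either strand, and neighbouring GC boxes may share a base while no printed TCF/LEF word overlaps one, and the sequences run 5′ to 3′ on the strand of the gene. The FZD4 window is chr11:86955346-86955645 on the minus strand, the LRP5 window chr11:68312341-68312640 on the plus strand, the TSPAN12 window chr7:120858095-120858394 on the minus strand and the RECK window chr9:36036663-36036962 on the plus strand.
FZD4: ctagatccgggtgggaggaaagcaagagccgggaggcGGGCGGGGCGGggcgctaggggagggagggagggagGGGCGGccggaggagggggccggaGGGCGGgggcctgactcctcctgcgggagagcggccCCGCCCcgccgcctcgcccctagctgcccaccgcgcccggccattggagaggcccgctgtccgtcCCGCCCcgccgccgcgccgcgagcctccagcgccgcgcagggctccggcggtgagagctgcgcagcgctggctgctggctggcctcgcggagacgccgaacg
LRP5: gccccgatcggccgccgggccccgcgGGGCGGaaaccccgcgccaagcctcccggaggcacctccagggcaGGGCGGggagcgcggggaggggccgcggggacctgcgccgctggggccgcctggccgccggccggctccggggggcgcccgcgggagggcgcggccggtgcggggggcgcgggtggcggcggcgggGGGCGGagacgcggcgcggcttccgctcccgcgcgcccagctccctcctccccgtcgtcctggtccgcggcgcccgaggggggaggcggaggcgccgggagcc
TSPAN12: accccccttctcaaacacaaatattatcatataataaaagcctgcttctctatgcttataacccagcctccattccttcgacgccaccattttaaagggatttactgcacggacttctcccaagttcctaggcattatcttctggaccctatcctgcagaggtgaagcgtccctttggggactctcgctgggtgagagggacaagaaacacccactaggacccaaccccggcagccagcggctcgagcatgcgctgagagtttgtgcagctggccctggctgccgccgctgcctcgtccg
RECK: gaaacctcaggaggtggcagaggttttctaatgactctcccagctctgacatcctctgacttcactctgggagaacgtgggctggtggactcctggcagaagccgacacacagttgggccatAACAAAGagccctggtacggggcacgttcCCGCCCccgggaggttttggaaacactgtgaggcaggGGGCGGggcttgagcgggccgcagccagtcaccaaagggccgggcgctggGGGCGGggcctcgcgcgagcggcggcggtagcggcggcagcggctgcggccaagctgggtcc
The FZD4 and LRP5 windows are rich in G and C, at 79.7% and 86.7%, against 54.3% in TSPAN12, 66.7% in RECK and a median of 58.7% over 35116 RefSeq promoter windows of the same length. They hold 40 and 52 CpG dinucleotides, TSPAN12 holds 13 and RECK 22, and the median window holds 14. GC boxes numbered 6 in FZD4, 3 in LRP5, 3 in RECK and 0 in TSPAN12, and 45.0% of all windows hold at least 1. A TCF/LEF word was found in 1 of the 4 printed windows, that of RECK, where it starts at position -128 from the RefSeq start and inside the gene span of the deposited table, and 13.8% of all windows hold one. The FZD8 window (chr10:35642247-35642546, minus strand) has 67.0% G and C, 31 CpG dinucleotides and 3 GC boxes. These matches describe letters only.

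Of the 10 genes, 9 had enough reads to be tested, all but NDP. Of these 9, 5 were higher in iREC (FZD4, LRP5, LRP6, ADGRA2 and FZD7), 0 were lower and 4 were not called (TSPAN12, RECK, FZD6 and FZD8), by edgeR's quasi-likelihood test with Benjamini-Hochberg adjustment over all 15330 tested genes at 0.05. Over all tested genes 25.0% were called, 13.2% higher and 11.7% lower. The samples of the 2 groups did not overlap for 4 of the 9 genes (FZD4, LRP6, ADGRA2 and FZD7), against 29.1% of all tested genes. FZD7 could enter the test only with its iREC reads, so its call and its lack of overlap are no separate support. None of the 9 was lower at an unadjusted p under 0.05 by edgeR, DESeq2 or limma-voom, and DESeq2 called 5 of them higher and limma-voom 3. The authors' deposited table also lists the 5 as higher, with adjusted p-values of 0.000197 (FZD4), 0.00578 (LRP5), 3.50e-05 (LRP6), 1.44e-08 (ADGRA2) and 6.46e-05 (FZD7). The median log2 fold change of the 9 was 1.03, beside 0.02 over all tested genes. Values below are CPM (counts scaled to a common library size) with TMM factors, in the order of replicates C, D, E and F, with mean ± SD over n = 4 samples per group, and log2 fold changes are iREC over iEC.

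**Figure D1:**
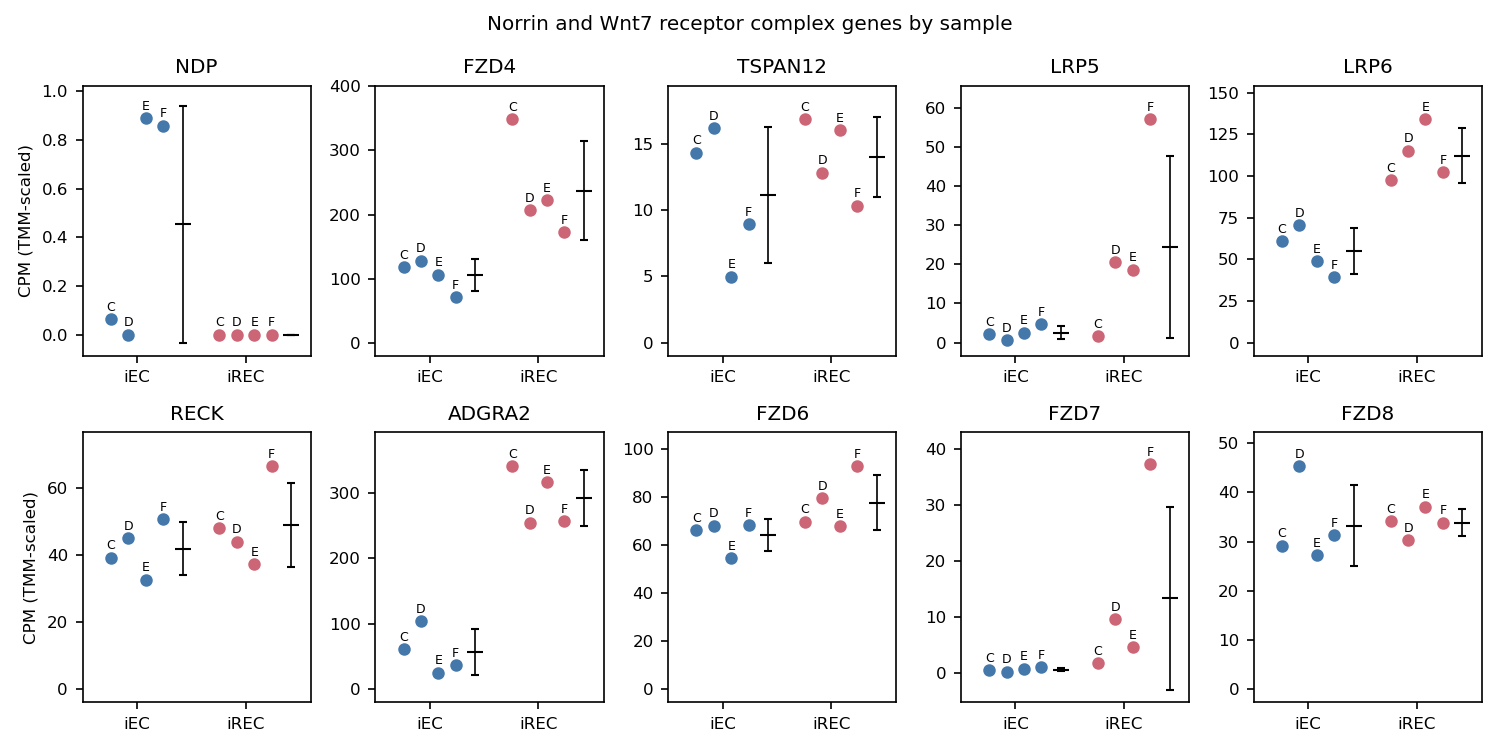
CPM (vertical axes, 1 scale per gene) of the 10 genes in each sample, with iEC in blue and iREC in red, letters naming the replicate, and the bar beside each group showing its mean and SD. FZD4, LRP6, ADGRA2 and FZD7 separate the groups, LRP5 spans 1.70 to 57.0 CPM within iREC, and NDP is at 0 in all 4 iREC samples.

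The library totals behind these values were 14877502 to 16971865 counts in iEC and 13739364 to 15987839 in iREC, so that 3 counts, taken as the detection floor, correspond to 0.178 to 0.215 CPM. The endothelial markers (12 genes, summed) stood between 7552 and 9574 CPM in iEC and between 4575 (replicate F) and 10268 CPM in iREC. Of the endothelial markers, 3 were called higher and 5 lower, and of the 11 tested mural and mesenchymal markers 5 higher and 1 lower. Of the 5 tested epithelial markers 1 was higher, and over all tested genes 25.0% were called, 13.2% higher and 11.7% lower. The summed markers of other cell types were highest in iREC F, where the 6 epithelial markers summed to 4924 CPM and the 14 mural and mesenchymal markers to 5698 CPM. The mural marker RGS5 was instead highest in iEC C, at 161 CPM against 70.5 CPM in iREC F. The other 3 iREC samples had 302 to 1117 CPM of epithelial and 1320 to 2080 CPM of mural and mesenchymal markers, and the iEC samples 391 to 1174 and 238 to 462 CPM. In bulk RNA, fewer cells of a type and less RNA per cell cannot be told apart.

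The ligand genes of the complexes were read at low levels in iEC and hardly at all in iREC. NDP (ENSG00000124479, GRCh38 chromosome X, 43948776 to 43973504, minus strand), which encodes Norrin, had 1, 0, 15 and 12 counts in iEC and 0 counts in each iREC sample. The iEC reads came mostly from replicates E and F, and replicates C and D lay under the floor. Summed over samples, NDP had 28 counts (0.451 CPM) in iEC against 0 in iREC. That makes it at least 9.16-fold lower in iREC, measured against 3 counts over the whole group (0.0492 CPM) rather than per sample. The iEC count enters this bound without error, and the spread between samples is left out. Fitted without the filter on low counts, NDP did not pass the threshold (adjusted p = 0.0539), whereas the authors' deposited table lists it with an adjusted p of 0.0269. An antisense gene, NDP-AS1, shares 295 exon bases (15.3%) with NDP, and whether the counting used the strand is not given in the sources used here.

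The Wnt7 ligand genes had the same direction. WNT7B had 52, 2, 80 and 49 counts in iEC and 0 in every iREC sample, which makes it at least 59.9-fold lower in iREC against 3 counts over the group. WNT7A had 5, 0, 8 and 3 counts in iEC and 0, 0, 1 and 0 in iREC, a pooled ratio of 15.7 with an exact 95% interval from 2.44 to 659 for counting error. Neither passed the filter on low counts. Fitted without that filter, WNT7B was lower (adjusted p = 0.00203) and WNT7A did not pass the threshold (adjusted p = 0.128). WNT7B also passed the filter in 5 of the 8 fits that left out a sample, and was lower in all 5 (adjusted p up to 0.0274). With 0 counts in iREC it could pass there only through its iEC reads, so these fits are no separate support.

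FZD4, the Frizzled that binds Norrin (ENSG00000174804, chromosome 11, 86945679 to 86955391, minus strand), was higher in iREC. Its iEC samples read 118, 128, 106 and 71.1 CPM and its iREC samples 348, 207, 222 and 172 CPM. Every iREC sample lay above every iEC sample, and iREC C stood above the other three. The log2 fold change was 1.17 (SE 0.25, adjusted p = 0.00867), and it ranged from 0.92 to 1.29 when samples were left out singly. PRSS23, a gene on the opposite strand, shares 1399 exon bases (18.9%) with FZD4 and was the more abundant of the pair in counts, at 652 to 1096 CPM in iEC and 864 to 1294 CPM in iREC. PRSS23 did not pass the test (log2 fold change 0.19, adjusted p = 0.545).

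TSPAN12 (ENSG00000106025, chromosome 7, 120787320 to 120858402, minus strand), the Norrin co-activator, did not pass the test. It read 14.4, 16.2, 4.97 and 8.95 CPM in iEC and 16.9, 12.8, 16.1 and 10.3 CPM in iREC. The groups overlapped, with iEC E the lowest and iREC C the highest sample. The log2 fold change was 0.33 (SE 0.35, adjusted p = 0.524), and 0 of 17 alternative analyses called it. Per transcript length, FZD4 exceeded TSPAN12 by 3.75, 3.59, 9.75 and 3.63 times in iEC and by 9.42, 7.34, 6.31 and 7.59 times in iREC, in deposited FPKM (read counts scaled to gene length and library size). The ratio in iEC E, where TSPAN12 was lowest, lay above all 4 iREC values.

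Both co-receptor genes were called higher, and LRP5 spread far more between the samples of each group than LRP6. LRP6 (ENSG00000070018, chromosome 12, 12116025 to 12267012, minus strand) read 60.9, 70.7, 49.0 and 39.4 CPM in iEC and 97.4, 115, 134 and 102 CPM in iREC. The groups did not overlap, and the log2 fold change was 1.03 (SE 0.19, adjusted p = 0.00436). All 17 alternative analyses called LRP6.

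LRP5 (ENSG00000162337, chromosome 11, 68312609 to 68449275, plus strand) read 2.14, 0.632, 2.55 and 4.72 CPM in iEC and 1.70, 20.6, 18.6 and 57.0 CPM in iREC. Replicate C of iREC lay within the iEC range, and replicate F stood highest, so the groups overlapped. The log2 fold change was 3.29 (SE 0.91, adjusted p = 0.0271). Within iREC the highest sample exceeded the lowest by 33.5 times, and the SD of log2 CPM was 2.10, a spread that 0.554% of tested genes exceeded (median of all tested genes 0.28). The call was lost without iEC C (adjusted p = 0.0732), iEC D (0.0568), iEC E (0.0734), iREC D (0.0529) or iREC F (0.0529, log2 fold change 2.44) and under limma-voom (adjusted p = 0.164). Without iREC C the log2 fold change was 3.67 (adjusted p = 0.00451).

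LRP5 and LRP6 together, in FPKM, came to 6.10, 6.80, 5.08 and 4.69 in iEC and 9.53, 14.2, 15.6 and 19.0 in iREC. The sums did not overlap between groups. LRP5 made up 5.58%, 1.48%, 8.02% and 16.8% of that sum in iEC and 2.84%, 23.0%, 18.9% and 48.3% in iREC. Its mean share was 7.96% ± 6.46 in iEC and 23.3% ± 18.8 in iREC, with overlap, and the difference of 15.3 percentage points fell to 6.96 without iREC F and rose to 22.1 without iREC C.

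Of the Wnt7 receptor pair, ADGRA2 was higher in iREC and RECK was not called. ADGRA2 (ENSG00000020181, chromosome 8, 37784191 to 37844896, plus strand) read 61.4, 104, 25.0 and 36.4 CPM in iEC and 341, 255, 316 and 257 CPM in iREC. Even the lowest iREC sample lay above the highest iEC sample, and the iEC samples spread more (4.17-fold from lowest to highest) than the iREC samples (1.34-fold). The log2 fold change was 2.36 (SE 0.40, adjusted p = 0.00258), and all 17 alternative analyses called it. BRF2, on the opposite strand, shares 1629 exon bases (23.1%) with ADGRA2 but averaged 8.93 CPM in iEC and 7.92 CPM in iREC.

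RECK (ENSG00000122707, chromosome 9, 36036433 to 36124451, plus strand), the membrane-anchored protein that binds Wnt7, read 39.2, 45.1, 32.7 and 50.8 CPM in iEC and 48.0, 44.0, 37.4 and 66.6 CPM in iREC. The groups overlapped, with replicate F the highest in each, and the log2 fold change was 0.22 (SE 0.20, adjusted p = 0.459). The ratio of ADGRA2 to RECK in FPKM was 1.34, 1.98, 0.654 and 0.614 in iEC and 6.08, 4.95, 7.25 and 3.30 in iREC. Thus ADGRA2 was below RECK in 2 of the 4 iEC samples and above it in all 4 iREC samples, and the ratios did not overlap between groups.

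**Figure D2:**
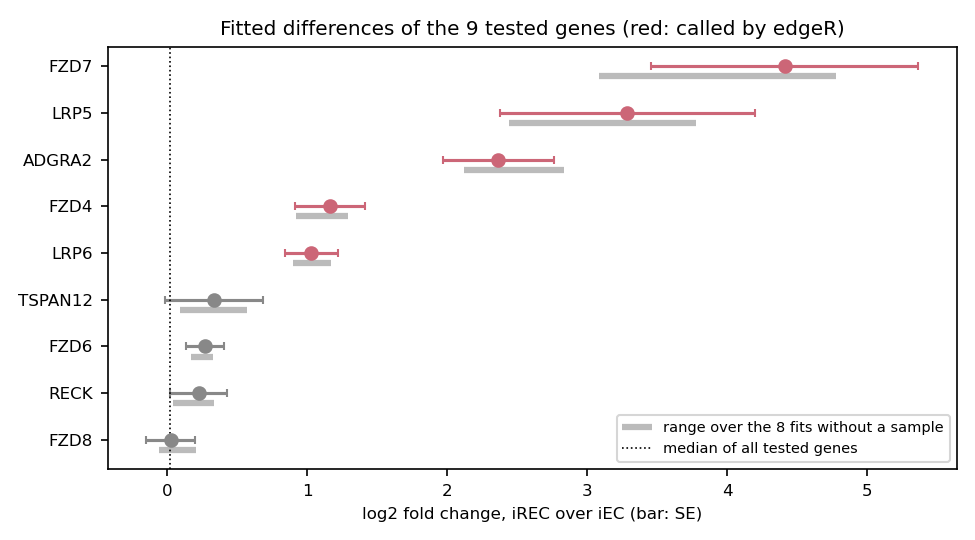
Fitted log2 fold change, iREC over iEC (horizontal axis), of the 9 tested genes, with the point and bar giving the estimate and its SE, red marking genes called by edgeR, the grey bar the range over the 8 fits without 1 sample, and the dotted line the median of all tested genes. FZD7 at 4.41 and LRP5 at 3.29 have the widest bars, and FZD8 at 0.03 has a range on both sides of 0.

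Among the other Frizzled members, FZD7 was higher in iREC, and FZD6 and FZD8 were not called. FZD7 (ENSG00000155760, chromosome 2, 202034587 to 202038445, plus strand) read 0.455, 0.253, 0.769 and 1.002 CPM in iEC and 1.77, 9.56, 4.58 and 37.3 CPM in iREC. The groups did not overlap, though all 4 iEC samples had 14 counts or fewer and iREC F held most of the iREC reads. On its iEC reads alone FZD7 would not have passed the filter on low counts, so its call and its lack of overlap are no separate support. The log2 fold change was 4.41 (SE 0.95, adjusted p = 0.00909), 3.08 without iREC F (adjusted p = 0.00778), and limma-voom did not call it (adjusted p = 0.0764). The SD of log2 CPM within iREC was 1.82, exceeded by 1.08% of tested genes.

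FZD6 (ENSG00000164930, chromosome 8, 103298433 to 103332866, plus strand), a Frizzled best known for planar cell polarity, read 66.2, 68.0, 54.5 and 68.4 CPM in iEC and 69.7, 79.4, 67.9 and 92.9 CPM in iREC. The groups met at 67.9 and 68.4 CPM, and the log2 fold change was 0.27 (SE 0.14, adjusted p = 0.184). BAALC-AS1, an antisense gene on the opposite strand, shares 138 exon bases (3.39%) with FZD6. It was higher in iREC (log2 fold change 1.37, adjusted p = 0.0217), but no sample read more than 4.21 CPM of it. FZD8 (ENSG00000177283, chromosome 10, 35638249 to 35642278, minus strand) read 29.2, 45.4, 27.2 and 31.3 CPM in iEC and 34.1, 30.3, 37.1 and 33.9 CPM in iREC. The iREC samples all lay within the iEC range, and the log2 fold change was 0.03 (SE 0.17, adjusted p = 0.933). Its sign turned in 4 of the 8 fits that left out a sample. Stretches of 50 bases that another gene shares on the same strand made up at most 0.854% of any of the 10 genes (FZD8). On the opposite strand such stretches made up 22.4% of ADGRA2, 18.2% of FZD4, 12.6% of NDP and 2.10% of FZD6. Whether the counting separated the strands is not known here.

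Of the 6 Frizzled genes outside the 10, 5 were tested. FZD1 and FZD2 were higher, 0 were lower and FZD3, FZD5 and FZD9 were not called, beside 25.0% called over all tested genes. None of the 5 was lower at an unadjusted p under 0.05 by edgeR, DESeq2 or limma-voom. FZD1 rose from 2.09 ± 1.80 CPM in iEC to 13.0 ± 5.92 CPM in iREC (log2 fold change 2.63, SE 0.57, adjusted p = 0.00903), with no overlap. FZD2 had 1.01 ± 0.617 CPM in iEC and 7.47 ± 6.29 CPM in iREC (log2 fold change 2.88, SE 0.80, adjusted p = 0.0282). FZD2 was called in 3 of the 8 fits that left out a sample and not under limma-voom (adjusted p = 0.104).

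Summed over all Frizzled genes, the FPKM was 40.7, 47.5, 36.3 and 37.8 in iEC and 76.8, 63.4, 61.1 and 75.5 in iREC, with no overlap between groups. FZD4 supplied 38.4%, 35.7%, 39.1% and 26.2% of that sum in iEC and 60.4%, 43.2%, 48.1% and 30.7% in iREC. It was the largest share in all 4 iREC samples and in iEC D and E, and FZD6 was the largest in iEC C and F. The mean share of FZD4 was 34.8% ± 5.98 in iEC and 45.6% ± 12.3 in iREC, and the groups overlapped at iREC F. The difference of 10.8 percentage points fell to 5.84 without iREC C and rose to 15.8 without iREC F. FZD6 took 38.9% ± 4.86 of the sum in iEC and 27.2% ± 3.87 in iREC, and FZD8 took 17.4% to 23.2% in iEC and 10.8% to 14.7% in iREC, each without overlap. FZD7 and FZD2 reached 12.7% and 9.71% in iREC F. These shares are descriptions and carry no test.

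**Figure D3:**
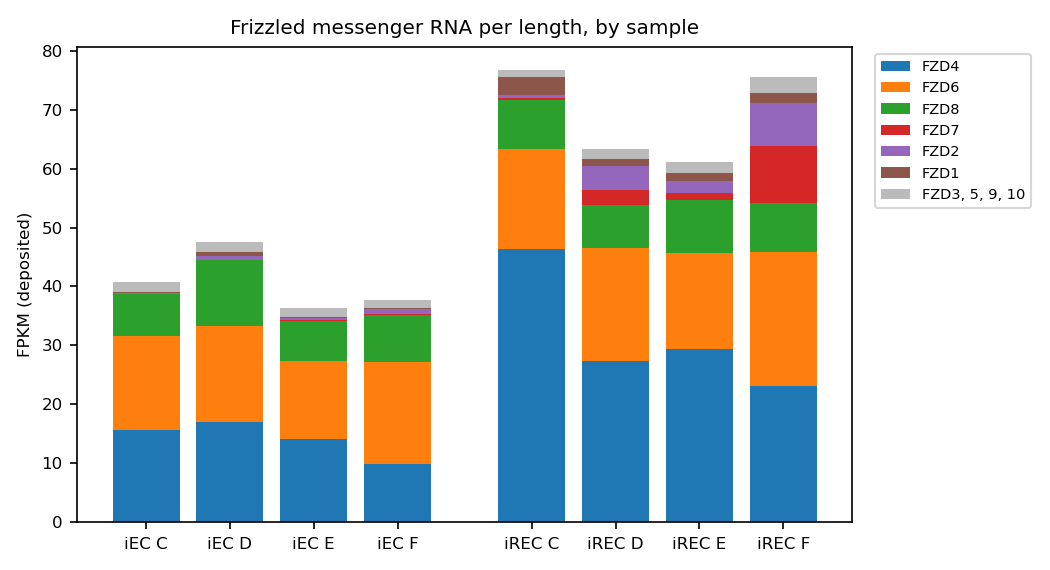
Deposited FPKM (vertical axis, from 0) of the Frizzled genes in each of the 8 samples, stacked by gene. The stacks reach 36.3 to 47.5 in iEC and 61.1 to 76.8 in iREC, and the FZD7 and FZD2 segments are tallest in iREC F.

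Per transcript length, the order of the 10 genes differed between groups. In iEC, FZD6 (15.7 FPKM on average) and FZD4 (14.2) led, followed by FZD8 (8.18), ADGRA2 (7.94), RECK (6.90), LRP6 (5.26), TSPAN12 (3.27), LRP5 (0.409), NDP (0.236) and FZD7 (0.161). Neighbours in that order overlapped in their samples, except TSPAN12 and LRP5. In iREC, ADGRA2 (40.7 FPKM) and FZD4 (31.6) led and overlapped, followed by FZD6 (18.7), LRP6 (10.7), FZD8 (8.25), RECK (7.98), TSPAN12 (4.09), LRP5 (3.92), FZD7 (3.41) and NDP (0). The samples of FZD4 and FZD6, of FZD6 and LRP6, of LRP6 and FZD8, of RECK and TSPAN12, and of FZD7 and NDP did not overlap there. The other neighbours in iREC did.

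Several of the genes shared the order of samples inside a group with sums or single markers of other cell types. From high to low, LRP5 and FZD7 ran F, E, C, D in iEC and F, D, E, C in iREC. The summed epithelial markers had these orders in both groups, and so did KRT8 and KRT19. KRT18 and EPCAM ran F, D, C, E in iREC, while in iEC EPCAM ran F, C, D, E and KRT7 F, E, D, C. CDH1 had at most 1 count in iEC. The summed retinal and pluripotency markers also ran F, D, E, C in iREC, but C, E, D, F and C, D, E, F in iEC. The summed mural and mesenchymal markers ran F, C, D, E in iEC and F, D, C, E in iREC. FZD4 ran the exact reverse of the summed epithelial markers, D, C, E, F in iEC and C, E, D, F in iREC. FZD2, LSR and the mesenchymal markers COL3A1, LUM and PDGFRB shared the order F, D, E, C in iREC. Of the same marker list, CSPG4, DES, COL1A1, DCN and POSTN had that order too. The others did not: TAGLN, NOTCH3 and MYH11 ran F, C, D, E, ACTA2 and PDGFRA F, D, C, E, and RGS5 F, C, E, D. RGS5, the marker of that list called lower, ran C, D, E, F in iEC. In iEC, LUM ran F, E, C, D, COL3A1 and PDGFRB ran F, E, D, C, FZD2 ran F, D, E, C, and LSR ran C, E, D, F with replicate F lowest. In iREC F, COL3A1 reached 1641 CPM, LUM 429 CPM, KRT8 3025 CPM and CDH1 81.6 CPM. LRP6 had the order of FZD4 in iEC (D, C, E, F) and another in iREC (E, D, F, C). ADGRA2 ran D, C, F, E in iEC and C, E, F, D in iREC. The part of other cell types in the levels of LRP5, LRP6, FZD7, FZD2 and FZD4 was not tested.

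**Figure D4:**
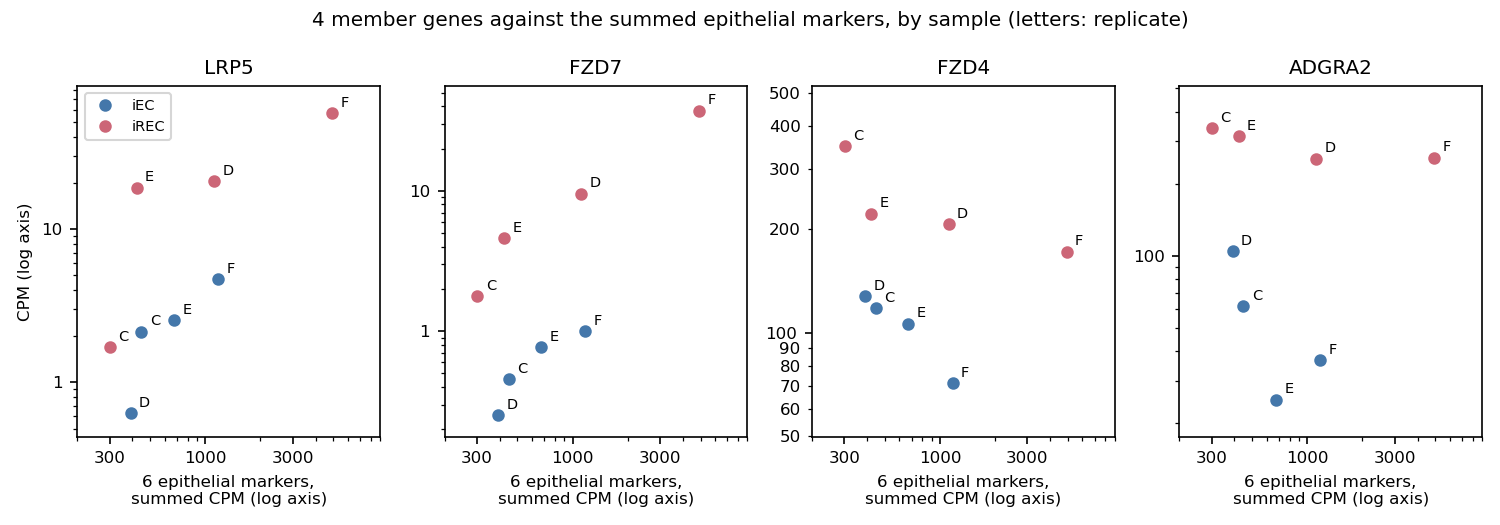
CPM of LRP5, FZD7, FZD4 and ADGRA2 (vertical axes, log scale) against the summed CPM of 6 epithelial markers (horizontal axes, log scale) in each sample, iEC in blue and iREC in red with replicate letters. LRP5 and FZD7 climb and FZD4 declines with the marker sum within each group, while for FZD4, FZD7 and ADGRA2 each iREC sample lies above all iEC samples.

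Of the 6 markers of retinal glia, neurons and pigment epithelium used here, RLBP1 had at most 1 count, PAX6 at most 2 and RPE65 at most 6 in any sample. NRL reached 22 counts and was not called (adjusted p = 0.900), and BEST1, a pigment epithelium gene, was higher in iREC, at 0.598 ± 0.102 CPM in iEC and 2.21 ± 1.35 CPM in iREC (log2 fold change 1.88, adjusted p = 0.0222). Summed over the 6, iEC samples had 2.51 to 4.62 CPM and iREC samples 4.65 to 34.5 CPM, the latter in replicate F, where SLC1A3 made up 32.2 CPM. Pluripotency markers summed to 12.9 to 52.9 CPM in iEC and 58.1 to 518 CPM in iREC, with NANOG at most 2 counts, SOX2 at most 6 and POU5F1 at most 19. LIN28A carried most of the sum in iREC F, with 8.45 to 32.4 CPM in iEC and 20.5 to 482 CPM in iREC (log2 fold change 3.40, adjusted p = 0.0242). DNMT3B was not called (adjusted p = 0.0650), at a mean of 14.5 CPM in iEC against 36.2 CPM in iREC.

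Over 5 lists of other genes of these pathways, 73 of 75 genes were in the table and 62 were tested. Of these, 14 were higher, 6 lower and 42 not called, with a median log2 fold change of 0.25. Over all tested genes 25.0% were called, 13.2% higher and 11.7% lower. Among receptor-level regulators and alternative Wnt receptors, 16 of 22 genes were tested, of which 5 were higher and 1 lower. DKK2, a secreted LRP5 and LRP6 ligand, had 0 counts in every iEC sample and 15, 66, 77 and 99 counts in iREC, at least 87.3-fold higher against 3 counts over the group (adjusted p = 0.00239). RSPO3, a secreted enhancer of Wnt receptor levels, had 0, 1, 2 and 1 counts in iEC and 731, 250, 355 and 123 counts in iREC, a pooled ratio of 372 (95% exact interval 145 to 1365). ROR1, a receptor for Wnt5a, rose from 4.27 ± 2.26 to 33.8 ± 18.7 CPM (adjusted p = 0.00216). The remaining calls were LGR4, an R-spondin receptor, and KREMEN2, a Dickkopf receptor, which were named to complete the count. The KREMEN2 call held in 5 of the 8 fits that left out a sample. DKK2, RSPO3 and KREMEN2 could pass the filter on low counts only with their iREC reads, so their calls are no separate support. TSPAN14, another tetraspanin, fell from 347 ± 57.5 to 178 ± 16.3 CPM (adjusted p = 0.00145).

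All 24 genes of the intracellular relay to beta-catenin were tested, of which 2 were higher, 3 lower and 19 not called, with a median log2 fold change of -0.13. Those 5 calls of 24 are no larger a share than the 25.0% called over all tested genes. TCF7L2, a DNA-binding partner of beta-catenin, had 24.1 ± 4.01 CPM in iEC and rose to 51.6 ± 7.28 CPM in iREC (log2 fold change 1.10, SE 0.16, adjusted p = 0.00124). DVL3, a Dishevelled adaptor, rose from 72.8 ± 4.65 to 102 ± 11.1 CPM (adjusted p = 0.0131). The kinase genes CSNK1E, GSK3B and CSNK1G1 were lower, CSNK1E from 124 ± 14.3 to 59.3 ± 3.06 CPM (log2 fold change -1.06, SE 0.12, adjusted p = 0.00027). GSK3B, a kinase that marks beta-catenin for degradation, fell from 132 ± 6.66 to 89.6 ± 10.3 CPM (adjusted p = 0.0065), and CSNK1G1 from 53.9 ± 5.43 to 37.8 ± 2.93 CPM (adjusted p = 0.0132).

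Genes known to answer Norrin or beta-catenin in endothelium moved both ways. The list does not give the direction in which each answers, so its counts and median are no measure of a response. Of 21, 17 were tested, of which 5 were higher, 2 lower and 10 not called, with a median log2 fold change of 0.79. The share called over all tested genes was 25.0%, with 13.2% higher and 11.7% lower. FOXC1, a transcription factor of vessel development, had 7.93 ± 2.03 CPM in iEC and rose to 23.9 ± 13.7 CPM in iREC (log2 fold change 1.59, SE 0.37, adjusted p = 0.0131). SOX7, an endothelial transcription factor, had 131 ± 38.9 CPM in iEC and fell to 46.9 ± 21.0 CPM in iREC (log2 fold change -1.49, SE 0.34, adjusted p = 0.0124). The calls of the tricellular junction gene LSR (adjusted p = 0.0465), the efflux pump gene ABCB1 (0.0418) and the amino acid transporter gene SLC38A5, the last lower (0.0424), held in 2, 1 and 2 of the 8 fits that left out a sample. SLC2A1 and CLDN5 completed the count of higher genes, and their calls held in 4 and 1 of those 8 fits.

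By the root mean square distance of centred log2 CPM over the 8 samples, the protein-coding genes closest to FZD4 among 13032 were ENTPD7 (0.15), GK (0.17) and SYTL4 (0.20). ENTPD7 read 23.7, 29.3, 19.4 and 13.6 CPM in iEC and 54.6, 40.2, 39.9 and 36.3 CPM in iREC. LRP6 stood at rank 149 (0.34) and TSPAN12 at rank 2208 (0.57), while LRP5 stood at rank 12568.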

How the data were processed

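Poly-T selected messenger RNA was sequenced, with dUTP in second-strand synthesis, per the labels' protocols. Reads were processed with fastp and HISAT2 2.0.5 on hg38, per the submitters' processing notes. The counting program and its strand setting are not given in the sources used here. The authors deposited raw read counts per gene, FPKM, and log2 fold changes with p-values and adjusted p-values of their own comparison. Positions and exon lengths of the 10 genes matched GENCODE release 29.

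The deposited counts were filtered with filterByExpr (15330 genes kept), scaled by TMM and compared with edgeR 4.0.16 (quasi-likelihood F-test, group as the only term, all 8 samples), with Benjamini-Hochberg adjustment and a threshold of 0.05. The test was checked on simulated data. Shares and ratios use FPKM. Alternatives were other scalings, filters, protein-coding genes only, DESeq2 1.42.0, limma-voom (limma 3.58.1), the replicate letter as a block, and each sample left out. Intervals cover counting error only, and floors leave out the spread between samples. Each bound given as at least a fold takes the count of the higher group without error. No 2 libraries of the same group agreed within sampling noise.

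The genes, lists and tests were chosen with earlier results of these data known. Named are the 10 genes, NDP-AS1 and the genes of the deposited table that share exon bases with the 10. Also named are up to 3 called genes per direction and list by size of change, and the 3 genes nearest to FZD4. LGR4, KREMEN2, SLC2A1, CLDN5, AXIN2 and PLVAP lie outside that rule. Like the markers named for their order across samples, they were chosen after their values were seen. RNF43, RSPO1, RAX and CRX were not analysed here. Another marker of the retinal list is not reported here and was left out of its sums.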

Additional observations from a re-analysis of the deposited data

Results flagged for a closer look

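In each group of 4, the distance of the highest and of the lowest sample to its neighbour, relative to the range of the group, was set against Dixon's critical value at 95%. Of 30 groups examined, 2 passed it, and chance alone gives about 1.5. FZD6 in iEC E read 54.5 CPM, while the other iEC samples read 66.2 to 68.4 CPM. The ratio of FZD4 to TSPAN12 in FPKM was 9.75 in iEC E, while the other iEC samples had 3.59 to 3.75.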

How the results depend on the processing

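Of the 10 genes, 5 were called in all alternatives with all samples except limma-voom, which called 3, and between 4 and 5 were called when samples were left out singly. FZD4, LRP6 and ADGRA2 were called in all 17 alternatives, FZD7 in 16 and LRP5 in 11, and TSPAN12 and RECK in 0. The log2 fold change of FZD8 ran from -0.06 (-0.061) to 0.20 (0.203) when samples were left out singly, and the cause was not tested. With the replicate letter as a block, 5 of the 10 genes were called, LRP5 with a log2 fold change of 2.88 (adjusted p = 0.0496), and LSR, ABCB1 and SLC38A5 were not (adjusted p = 0.152, 0.126 and 0.0688). The letters were not taken to pair the samples. The deviations of same-letter samples correlated at 0.168 (C), -0.079 (D), 0.029 (E) and 0.250 (F). The F pair was the highest of all pairs and iEC C correlated best with iREC C, but so did iEC D (0.178). These correlations do not settle whether the letters pair the samples. Of the pathway genes 20 were called, between 14 (without iREC D) and 29 (DESeq2). Over all genes the calls ran from 2660 without iREC D to 4664 with DESeq2, beside 3829. Leaving out the filter moved the median log2 fold change of all genes by 0.13. At this depth NDP, WNT7A and WNT7B lie at or under the floor in every iREC sample, so the size of their difference is given only as a bound or with a counting interval.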
